A study of Mus musculus with 6 samples.

Results

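The hypoxia pathway was examined here through 39 genes in bone marrow-derived macrophages (BMDMs). The cells came from mice labelled as PKM2 knockout or control and were labelled as primed with LPS and IFN-γ. The members were chosen by symbol as the subunits of the hypoxia-inducible factors (HIFs), the enzymes and binding proteins that set HIF stability and activity, and HIF target genes outside glycolysis. All 39 symbols were found among the 23935 symbols of the count and TPM tables, and 37 passed the filter on low counts, as did 16516 genes in all. The rule names symbols and uses no measured value. The HIF-α subunits are made continuously and, in oxygen, are hydroxylated by the EGLN prolyl hydroxylases, bound by the VHL protein and degraded. When hydroxylation slows, or when inflammatory signals raise HIF-α in macrophages, HIF-α pairs with ARNT on DNA and switches on genes for oxygen supply, mitochondrial turnover, collagen modification, pH control and glycolysis. Since HIF-α is set largely at the protein level, the RNA levels below do not measure it, and oxygen was not a variable of this comparison.

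The control mice, PKM2FL/FL, carried the floxed Pkm allele, and the PKM2ΔMAC mice carried the same floxed allele with LysM-Cre, a recombinase in the Lyz2 locus that is active in the myeloid lineage rather than in macrophages alone. Bone marrow cells of either genotype were grown with M-CSF for 7 days. By the paper's methods they were then exposed for 16 h to LPS, a bacterial membrane component (10 ng/mL), together with IFN-γ (25 ng/mL). Total RNA of 3 mice per genotype was sequenced, with 1 library per mouse, and no unprimed library was among them, so the response to priming could not be measured. PKM2 is a pyruvate kinase isoform that the paper links to HIF-1α signalling. The comparison asks how its deletion goes with the RNA of these genes in such macrophages. Cre was present in PKM2ΔMAC alone, so the comparison joins PKM2 deletion with Cre in the Lyz2 locus, and their separate parts were not tested.

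Libraries held between 49957449 and 54524651 counts, and replicates differed beyond counting noise, with chi-square values of 7.55 to 53.8 per degree of freedom. The targeted gene Pkm was at 1189 to 1205 TPM in PKM2FL/FL and 716 to 925 TPM in PKM2ΔMAC, and Lyz2 made up 4.48% to 4.96% of TPM in the first and at most 0.00876% in the second, which matches the labels. Lyz2 was 99.8% lower in PKM2ΔMAC, so the comparison also joins PKM2 deletion with a near loss of Lyz2 RNA. The labels do not give the number of LysM-Cre alleles. Pkm was 37.4% lower in PKM2ΔMAC and still abundant. Counts per gene do not separate PKM2 from the other Pkm isoform, so loss of PKM2 itself was not measured. The 8 macrophage markers summed to 8103 to 8409 TPM in PKM2FL/FL and 8563 to 9320.3 TPM in PKM2ΔMAC. On counts, 5 of the 8 were lower in PKM2ΔMAC and 3 higher, with a median log2 fold change of -0.029. Itgam, which was higher, was the 1 marker of the 8 with an adjusted p under 0.05 in edgeR. Of 10 markers of the LPS/IFN-γ response, Nos2 (0.0308 to 0.401 TPM), Il6 (0.197 to 0.515 TPM) and Cxcl9 (0.499 to 1.15 TPM) were at or near 0 in all 6 libraries and Il1b was at 3.24 to 5.90 TPM, while Irf1 (47.8 to 52.6 TPM) and Gbp2 (26.8 to 39.1 TPM) were the highest, and the 10 summed to 111 to 117 TPM in PKM2FL/FL and 101.6 to 135 TPM in PKM2ΔMAC. The near absence of Nos2, Il6 and Cxcl9 goes against the label of priming, and the libraries were used as labelled. The 8 neutrophil markers summed to 68.6 to 168 TPM in PKM2FL/FL and 323 to 659 TPM in PKM2ΔMAC, and 6 cell cycle markers to 358 to 395 TPM in PKM2FL/FL and 483 to 560.1 TPM in PKM2ΔMAC. In bulk RNA, fewer cells of a type and less RNA per cell cannot be told apart, and the part of these differences in the values below was not tested. Libraries of PKM2ΔMAC replicates 2 and 3 lay at opposite ends of the second principal component (30.7% of variance).

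None of the 37 tested members passed an adjusted p of 0.05 in edgeR, where 68 of 16516 genes (0.412%) did. The smallest adjusted p among the members was 0.147, for Bnip3. At an unadjusted p under 0.05, 9 members were lower in PKM2ΔMAC (24.3%, where 4.6% of all tested genes were lower) and 1 was higher (where 5.24% of all tested genes were higher). The 9 were Vegfa, Adm, Edn1, Bnip3, Ak4, P4ha2, Ero1l, Kdm3a and Rora, and the higher member was Gbe1. DESeq2 called 1 member, Bnip3 (of 302 genes, 1.83% of all tested), and limma on log2(TPM + 1) called 0 (of 41 genes, 0.281%). On that TPM scale, 3 members were lower at an unadjusted p under 0.05 (Bnip3, Ak4 and Edn1, where 1.82% of all genes were lower) and 2 were higher (Egln1 and Gbe1, where 11.5% of all genes were higher).

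Small differences in 1 direction made up most of the pattern. The log2 fold change of PKM2ΔMAC against PKM2FL/FL was below 0 for 30 of 37 members (81.1%, where 50.1% of all tested genes were below 0), with a median of -0.087 beside -0.00021 over all tested genes. Members ranged from -0.45 (Edn1) to 0.21 (Gbe1). The genotypes did not overlap for 10 members (27.0%, where 17.2% of all tested genes did not overlap), 8 of them lower and 2 higher. On the deposited TPM scale, 22 of 37 members were below 0, where the median of all genes itself stood at 0.063 and 27.6% of genes were below 0, and 30 of 37 members were below that median.

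**Figure D1:**
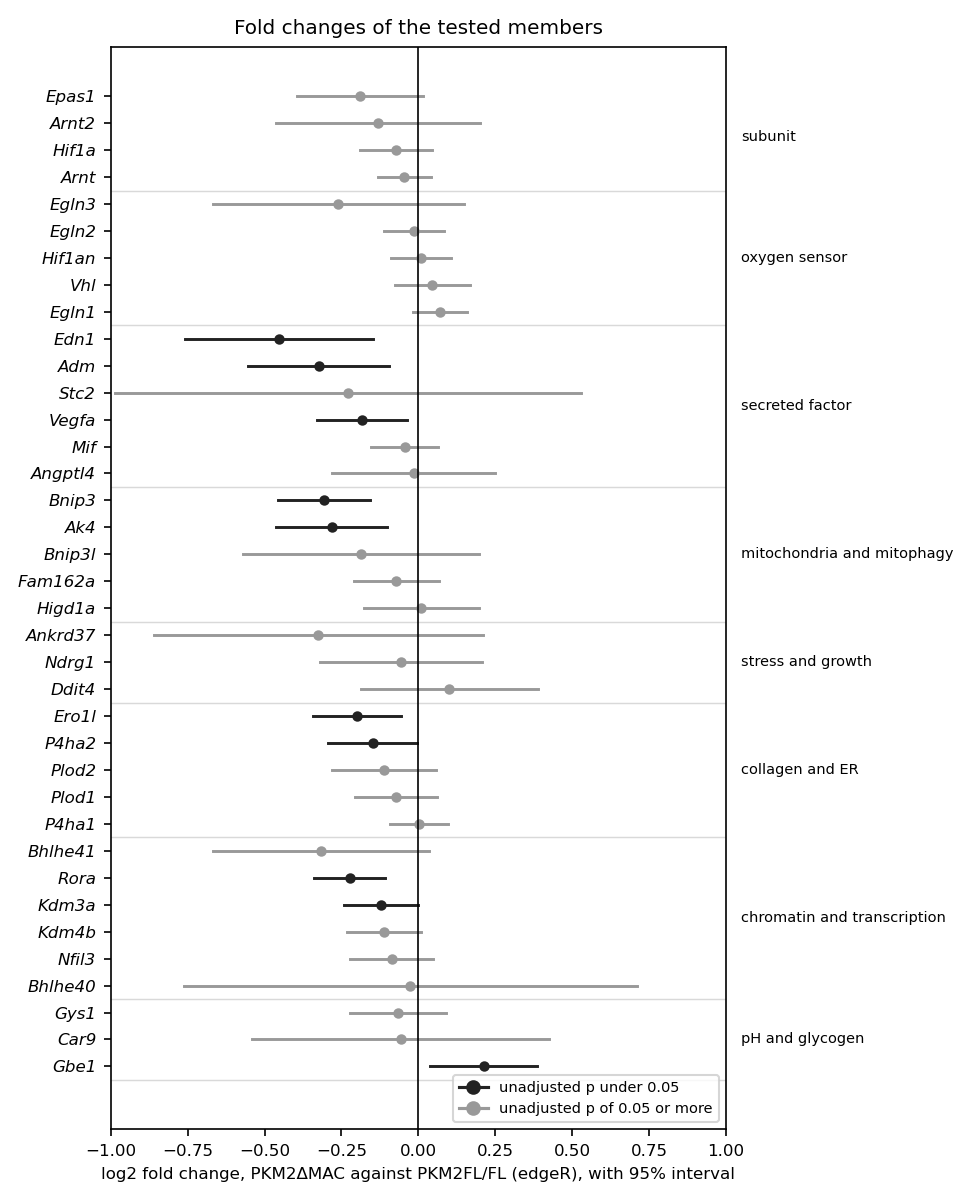
Log2 fold changes of the 37 tested members, PKM2ΔMAC against PKM2FL/FL, with points for the edgeR estimate and bars for the 95% interval, grouped by role, and dark symbols where the unadjusted p was under 0.05. Of the 37 points, 30 lie left of 0, from -0.45 for Edn1, and 7 lie right of it, up to 0.21 for Gbe1.

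The 3 PKM2ΔMAC libraries were not alike in this. The median deviation of the 37 members from the PKM2FL/FL mean, on the log2 scale, was -0.027 in PKM2ΔMAC replicate 1, -0.19 in replicate 2 and -0.089 in replicate 3. Over all tested genes it was 0.0029, 0.0053 and 0.00043 in these libraries. The PKM2FL/FL libraries were at 0.0065 to 0.011 over the members, near 0 by construction since they set that mean. Of the 37 members, 23, 30 and 28 lay below the PKM2FL/FL mean in PKM2ΔMAC replicates 1, 2 and 3, and 15, 16 and 18 in PKM2FL/FL replicates 1, 2 and 3. Replicate 2 thus lay lowest over the members as a whole and replicate 1 lay nearest the controls. Leaving out replicate 2 moved the log2 fold change of 20 of 37 members by over 1.5 times or across 0. Without it the median was -0.066 and 26 of 37 members were below 0. In that fit, 299 genes (1.77%) were called over all genes, among them 2 members, Adm (log2 fold change -0.42, adjusted p = 0.0280) and Edn1 (-0.57, adjusted p = 0.0454).

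To show where the core letters of the hypoxia response element fall near the members, RefSeq promoter sequences (GRCm38.p6) were searched for ACGTG and GCGTG on both strands in the 250 bases before each annotated start. On the opposite strand these read CACGT and CACGC, and a palindromic CACGTG counts on both strands. Of the 39 members, 32 had a promoter in the table, Ero1l under its current symbol Ero1a, and Epas1, Angptl4, Bnip3l, Ndrg1, Plod2, Kdm4b and Bhlhe40 had none. At least 1 match lay in a window of 23 of 32 members (71.9%), of 6772 of 11439 tested genes (59.2%) and of 41.5% of all genes in the table. The 250 bases are printed for 4 of the members with an unadjusted p under 0.05 that were lower and for the 1 that was higher, picked after their values were seen and read 5′ to 3′ on the gene's own strand, with matches in capitals. They are Bnip3 (chr7:138909507-138909756, minus strand, 5 matches), the first of 4 windows of Ak4 (chr4:101419039-101419288, plus strand, 2 matches), Adm (chr7:110627407-110627656, plus strand, 2 matches), Ero1l (chr14:45318573-45318822, minus strand, 3 matches) and Gbe1 (chr16:70313699-70313948, plus strand, 0 matches).
Bnip3: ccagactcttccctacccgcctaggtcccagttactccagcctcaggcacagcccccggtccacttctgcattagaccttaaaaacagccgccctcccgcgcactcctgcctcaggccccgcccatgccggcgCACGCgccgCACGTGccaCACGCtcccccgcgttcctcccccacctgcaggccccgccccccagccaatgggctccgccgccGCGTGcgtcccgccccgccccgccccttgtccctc
Ak4: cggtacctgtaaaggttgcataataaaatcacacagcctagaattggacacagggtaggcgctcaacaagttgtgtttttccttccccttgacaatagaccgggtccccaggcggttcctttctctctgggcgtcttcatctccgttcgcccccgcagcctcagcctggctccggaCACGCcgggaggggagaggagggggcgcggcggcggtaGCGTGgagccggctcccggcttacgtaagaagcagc
Adm: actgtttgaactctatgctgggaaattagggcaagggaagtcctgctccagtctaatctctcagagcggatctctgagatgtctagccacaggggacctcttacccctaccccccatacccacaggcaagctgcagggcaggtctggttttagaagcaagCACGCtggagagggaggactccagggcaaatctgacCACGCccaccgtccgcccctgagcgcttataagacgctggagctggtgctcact
Ero1l: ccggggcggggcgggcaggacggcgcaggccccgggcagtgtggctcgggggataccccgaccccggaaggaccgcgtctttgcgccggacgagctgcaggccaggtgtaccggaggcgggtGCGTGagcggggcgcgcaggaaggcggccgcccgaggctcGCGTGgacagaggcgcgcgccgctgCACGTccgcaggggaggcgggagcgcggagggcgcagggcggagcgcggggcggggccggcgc
Gbe1: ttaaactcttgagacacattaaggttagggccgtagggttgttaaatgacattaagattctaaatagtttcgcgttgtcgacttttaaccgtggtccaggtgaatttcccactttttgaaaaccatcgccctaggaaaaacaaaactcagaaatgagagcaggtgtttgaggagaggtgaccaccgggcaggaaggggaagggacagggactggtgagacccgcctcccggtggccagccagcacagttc
The match nearest the start lay 35 bases before it in Bnip3, 36 in Ak4, 54 in Adm and 63 in Ero1l. In Bnip3 the capitals include 1 palindrome, CACGTG, which is also an E-box. Of the 9 members that were lower at an unadjusted p under 0.05, 8 had a match in at least 1 window (88.9%, beside 59.2% of tested genes), and Edn1 had none. All 4 printed lower members held a match, so the print does not stand for the 9, and Edn1 is not printed. Vegfa had matches in the second of its 2 windows alone, and Kdm3a in the first of its 3 alone. These 9 genes had 15 windows, of which 11 held a match (73.3%, beside 53.4% of the windows of tested genes), with several windows from the same gene. A match here is a run of letters and no evidence of binding, and the absence of a match in Gbe1 or Edn1 speaks only of these windows.

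Levels were compared between members on TPM, which is corrected for length. Mif, an inflammatory cytokine, had the highest mean of the 39 with 547 ± 13.9 TPM in PKM2FL/FL and 558 ± 12.6 TPM in PKM2ΔMAC (SD, n = 3 each). After it came Bnip3l with 146 ± 12.7 TPM in PKM2FL/FL and 135 ± 22.1 TPM in PKM2ΔMAC, P4ha1 with 129 ± 2.17 TPM in PKM2FL/FL and 136 ± 4.26 TPM in PKM2ΔMAC, Hif1a with 126 ± 6.27 TPM in PKM2FL/FL and 126 ± 8.42 TPM in PKM2ΔMAC and Plod1 with 114 ± 7.03 TPM in PKM2FL/FL and 114 ± 10.8 TPM in PKM2ΔMAC. The ranges of neighbours in this order from Bnip3l to Plod1 overlapped, and Mif stood apart from them. At the other end Hif3a and Car12 had at most 12 counts in any library, near the 3 counts that a count of 0 allows (0.0546 to 0.0604 CPM, counting error only).

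**Figure D2:**
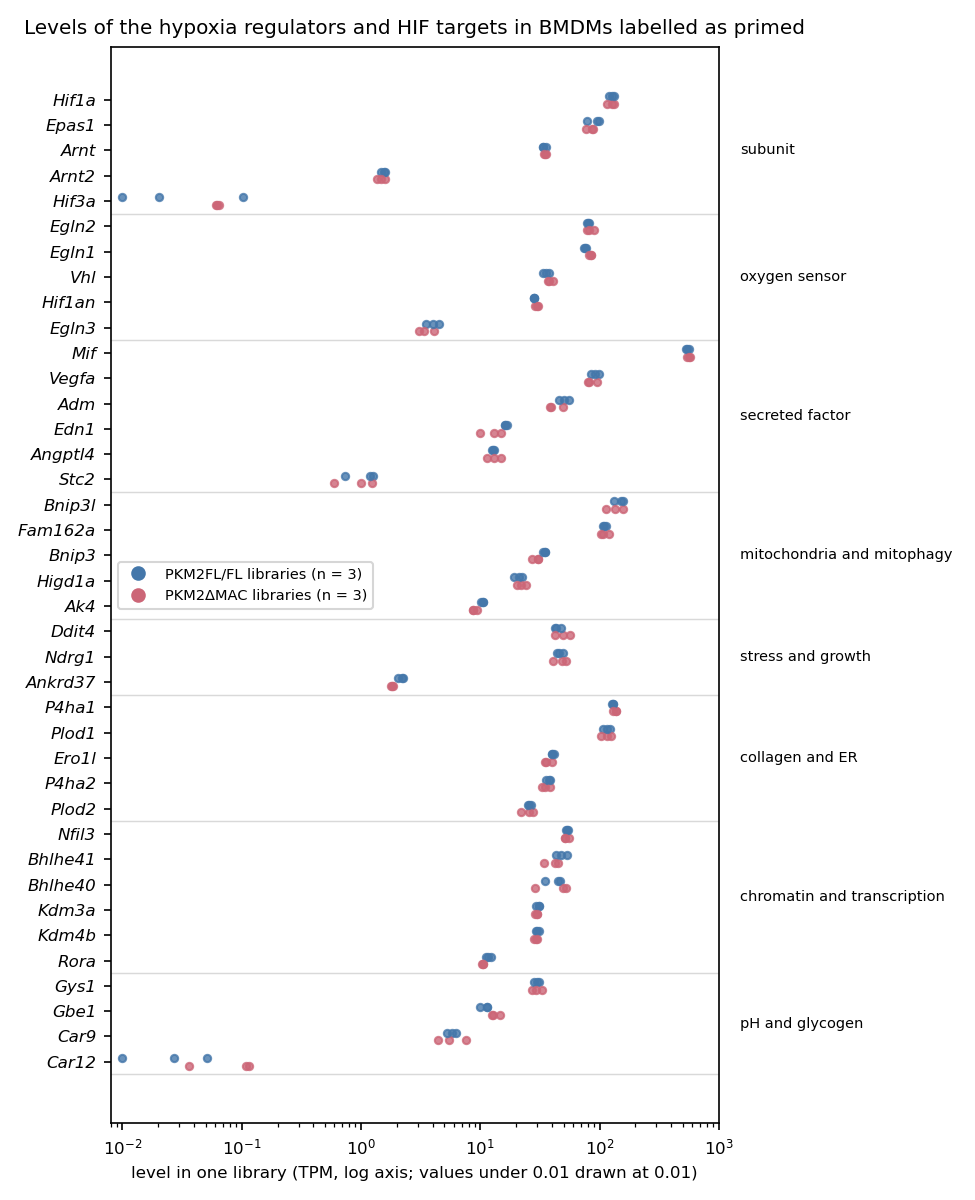
Levels of all 39 members in each of the 6 libraries (TPM, log axis), with 1 point per library and genotypes in separate colours, ordered by mean level within each role. Mif has the highest level, Hif3a and Car12 lie near the lower limit, and within a gene the genotypes lie close together relative to the range between genes.

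All 4 tested subunits were expressed in either genotype, and none passed the test. Hif1a, the oxygen-regulated subunit best known in macrophage activation, was at 203, 209.9 and 223 CPM in PKM2FL/FL and 208, 205 and 191 CPM in PKM2ΔMAC, with replicates 1, 2 and 3 in this order here and below and CPM as counts scaled to a common library size with TMM factors. The genotypes overlapped, and its log2 fold change was -0.073 (SE 0.051, 95% interval -0.19 to 0.043, adjusted p = 0.699). Over the 14 alternatives Hif1a ran from -0.10 to -0.00047, the latter on log2(TPM + 1). Epas1, which encodes HIF-2α, was at 126, 156 and 153 CPM in PKM2FL/FL and 135, 127 and 120.0 CPM in PKM2ΔMAC. Its genotypes overlapped through PKM2FL/FL replicate 1, the lowest of the controls, and its log2 fold change was -0.19 (SE 0.087, 95% interval -0.40 to 0.016, adjusted p = 0.539). Without PKM2FL/FL replicate 1 it was -0.28 (adjusted p = 0.294).

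Arnt, the constitutive partner of the α subunits, was at 78.1, 80.5 and 76.8 CPM in PKM2FL/FL and 76.5, 74.8 and 76.8 CPM in PKM2ΔMAC. The lowest control exceeded the highest PKM2ΔMAC library by less than this rounding, and the log2 fold change was -0.046 (SE 0.038, 95% interval -0.13 to 0.040, adjusted p = 0.762), or 0.026 on the TPM scale. Arnt2, its paralog of neural tissue, was at 3.26, 3.43 and 3.46 CPM in PKM2FL/FL and 3.39, 2.75 and 3.12 CPM in PKM2ΔMAC, overlapping, with a log2 fold change of -0.13 (SE 0.14, 95% interval -0.46 to 0.20, adjusted p = 0.826). Exons of Arnt2 share 214 bases with an antisense gene, Gm30873, whose counts were 18.7% of those of Arnt2, and the strand setting of the counting is not given in the sources used here. Hif3a, a regulatory α subunit, had 0, 2 and 10 counts in PKM2FL/FL and 6, 6 and 6 in PKM2ΔMAC and was not tested.

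The oxygen sensors showed no common direction. Egln1, the main prolyl hydroxylase acting on HIF-α in most cells, was at 78.3, 78.6 and 77.0 CPM in PKM2FL/FL and 84.0, 79.4 and 82.0 CPM in PKM2ΔMAC. All PKM2ΔMAC libraries lay above all PKM2FL/FL libraries, with a log2 fold change of 0.069 (SE 0.038, 95% interval -0.019 to 0.16, adjusted p = 0.613). The exact permutation p of Egln1 was 0.10, the smallest this design can give, and on log2(TPM + 1) its log2 fold change was 0.14 (adjusted p = 0.263 in limma). Egln2 was at 64.9, 63.8 and 63.0 CPM in PKM2FL/FL and 60.8, 65.6 and 63.4 CPM in PKM2ΔMAC, overlapping, with a log2 fold change of -0.014 (SE 0.043, 95% interval -0.11 to 0.084, adjusted p = 0.951), or 0.057 on the TPM scale. Egln3, itself a HIF target and the least abundant of the family, was at 2.72, 3.37 and 3.05 CPM in PKM2FL/FL and 2.98, 2.15 and 2.50 CPM in PKM2ΔMAC. PKM2ΔMAC replicate 1 lay inside the control range and the other two below it, and the log2 fold change was -0.26 (SE 0.18, 95% interval -0.67 to 0.15, adjusted p = 0.693), or -0.15 without PKM2ΔMAC replicate 2.

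Vhl, the recognition subunit of the ubiquitin ligase for hydroxylated HIF-α, was at 28.8, 31.6 and 30.8 CPM in PKM2FL/FL and 31.3, 31.8 and 31.0 CPM in PKM2ΔMAC. It overlapped between genotypes, with a log2 fold change of 0.045 (SE 0.054, 95% interval -0.077 to 0.17, adjusted p = 0.840). Without PKM2FL/FL replicate 1, Vhl was at 0.0080. Hif1an, the asparaginyl hydroxylase that blocks coactivator binding, was at 53.7, 52.1 and 53.5 CPM in PKM2FL/FL and 52.7, 52.1 and 55.4 CPM in PKM2ΔMAC, overlapping, with a log2 fold change of 0.0093 (SE 0.043, 95% interval -0.088 to 0.11, adjusted p = 0.968). Of the 5 sensors, 2 were below 0 and 3 above, with a median of 0.0093, and the 4 tested subunits were all below 0 with a median of -0.10, Arnt excepted on the TPM scale.

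The balance between paralogs was compared as each gene's share of the summed TPM of its family. Hif1a took 58.1% ± 2.2 in PKM2FL/FL and 60.0% ± 0.63 in PKM2ΔMAC (SD, n = 3 each) of the HIF-α subunits Hif1a, Epas1 and Hif3a. Egln1 took 47.5% ± 0.12 in PKM2FL/FL and 49.1% ± 1.5 in PKM2ΔMAC (SD, n = 3 each) of the 3 prolyl hydroxylases, Egln2 49.98% and 48.8%, and Egln3 2.51% and 2.06%, so that Egln1 and Egln2 were near equal in RNA. Every PKM2ΔMAC library had a larger Egln1 share than every control. Over the 10 shares compared, no difference passed the two-sided exact permutation test (raw p from 0.10, the smallest possible, to 0.6, adjusted p from 0.5 to 0.6). Arnt took over 95% of Arnt and Arnt2 in every library. P4ha1 took 77.6% and 79.4% of P4ha1 and P4ha2, Plod1 81.6% and 82.0% of Plod1 and Plod2, and Bnip3 19.1% and 18.1% of Bnip3 and Bnip3l. Bhlhe40 took 46.7% ± 1.9 in PKM2FL/FL and 51.0% ± 5.1 in PKM2ΔMAC (SD, n = 3 each) of Bhlhe40 and Bhlhe41, and Car9 at least 98.0% of Car9 and Car12.

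**Figure D3:**
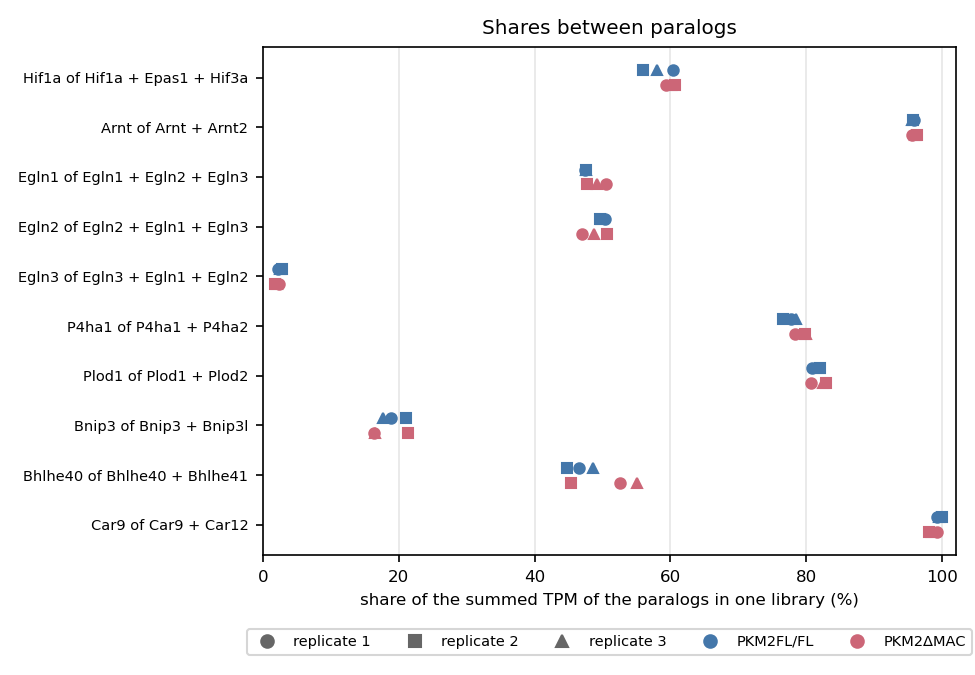
Share of the summed TPM of each paralog family taken by the named gene (percent, from 0 to 100), with 1 point per library, colours for genotype and shapes for replicate. Hif1a holds near 58% to 60%, Egln1 and Egln2 hold near 48% to 50% each, and the genotypes are apart for Egln1 and overlap or tie in the other 9 shares.

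All 6 secreted factors had log2 fold changes below 0 on counts, with Angptl4 and Mif above 0 on the TPM scale, and their median was -0.21. Vegfa, the vascular growth factor, was at 105, 120.1 and 112 CPM in PKM2FL/FL and 93.8, 107 and 96.3 CPM in PKM2ΔMAC. PKM2ΔMAC replicate 2 lay among the controls, and the log2 fold change was -0.18 (95% interval -0.33 to -0.037, unadjusted p = 0.0202, adjusted p = 0.406). Adm, which encodes the vasodilator adrenomedullin, was at 23.7, 25.3 and 21.1 CPM in PKM2FL/FL and 17.0, 21.1 and 17.8 CPM in PKM2ΔMAC. PKM2FL/FL replicate 3 and PKM2ΔMAC replicate 2 met at 21.1 CPM, and Adm was 20.2% lower by a log2 fold change of -0.32 (95% interval -0.55 to -0.10, unadjusted p = 0.0108, adjusted p = 0.340).

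Edn1, which encodes the vasoconstrictor endothelin, was at 10.0, 10.1 and 9.88 CPM in PKM2FL/FL and 7.63, 8.43 and 5.86 CPM in PKM2ΔMAC. The controls lay close together, all PKM2ΔMAC libraries lay below them, and replicate 3 was lowest. The log2 fold change of -0.45 (95% interval -0.76 to -0.15, unadjusted p = 0.00852, adjusted p = 0.316) was the lowest of the members, 26.9% below the controls. Endothelial cells are a main source of Edn1, and 5 endothelial markers summed to 17.6 to 19.5 TPM in PKM2FL/FL and 10.2 to 28.9 TPM in PKM2ΔMAC; their part in the Edn1 values was not tested. Mif was at 121, 114 and 114 CPM in PKM2FL/FL and 117, 106 and 115 CPM in PKM2ΔMAC, overlapping, with a log2 fold change of -0.045 (SE 0.048, 95% interval -0.15 to 0.064, adjusted p = 0.821). Angptl4, an inhibitor of lipoprotein lipase, gave -0.016 (95% interval -0.28 to 0.25), and Stc2, a secreted glycoprotein at 0.801 to 1.89 CPM, gave -0.23 (95% interval -0.99 to 0.53), an interval that covers a wide range either way.

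The smallest p among the members was that of a mitophagy receptor. Bnip3, a receptor on the outer mitochondrial membrane that marks mitochondria for autophagy, was at 22.7, 22.5 and 21.8 CPM in PKM2FL/FL and 19.1, 18.1 and 17.0 CPM in PKM2ΔMAC. All 3 PKM2ΔMAC libraries lay below all controls, and Bnip3 was 19.2% lower, with a log2 fold change of -0.31 (95% interval -0.46 to -0.16, unadjusted p = 0.00130, adjusted p = 0.147). DESeq2 gave an adjusted p of 0.0179, and over all alternatives the adjusted p of Bnip3 ran from 0.0179 to 0.543. Its paralog Bnip3l was at 167, 144 and 174 CPM in PKM2FL/FL and 166, 114 and 146 CPM in PKM2ΔMAC. Bnip3l overlapped between genotypes, since PKM2ΔMAC replicate 1 was as high as the controls and replicate 2 was the lowest of all, and its log2 fold change was -0.19 (SE 0.15, 95% interval -0.57 to 0.20, adjusted p = 0.769). Without PKM2ΔMAC replicate 2 it was -0.048. A processed pseudogene, Bnip3l-ps, held counts equal to 7.63% of those of Bnip3l, so reads may have been split between them.

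Ak4, an adenylate kinase of the mitochondrial matrix, was at 13.5, 13.8 and 13.9 CPM in PKM2FL/FL and 12.1, 10.7 and 11.1 CPM in PKM2ΔMAC. The genotypes did not overlap, and Ak4 was 17.8% lower by a log2 fold change of -0.28 (95% interval -0.46 to -0.10, unadjusted p = 0.00647, adjusted p = 0.273). Of the other mitochondrial members, Higd1a, a protein of the inner membrane, gave 0.010 (95% interval -0.18 to 0.20), and Fam162a, a mitochondrial HIF target, gave -0.071 (95% interval -0.21 to 0.067) and overlaps Wdr5b on the other strand. Exons of Fam162a and Wdr5b share 168 bases, and the counts of Wdr5b were 21.9% of those of Fam162a. The 5 mitochondrial members had a median of -0.19, with 4 below 0 on counts and Fam162a at 0.00047 on the TPM scale.

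**Figure D4:**
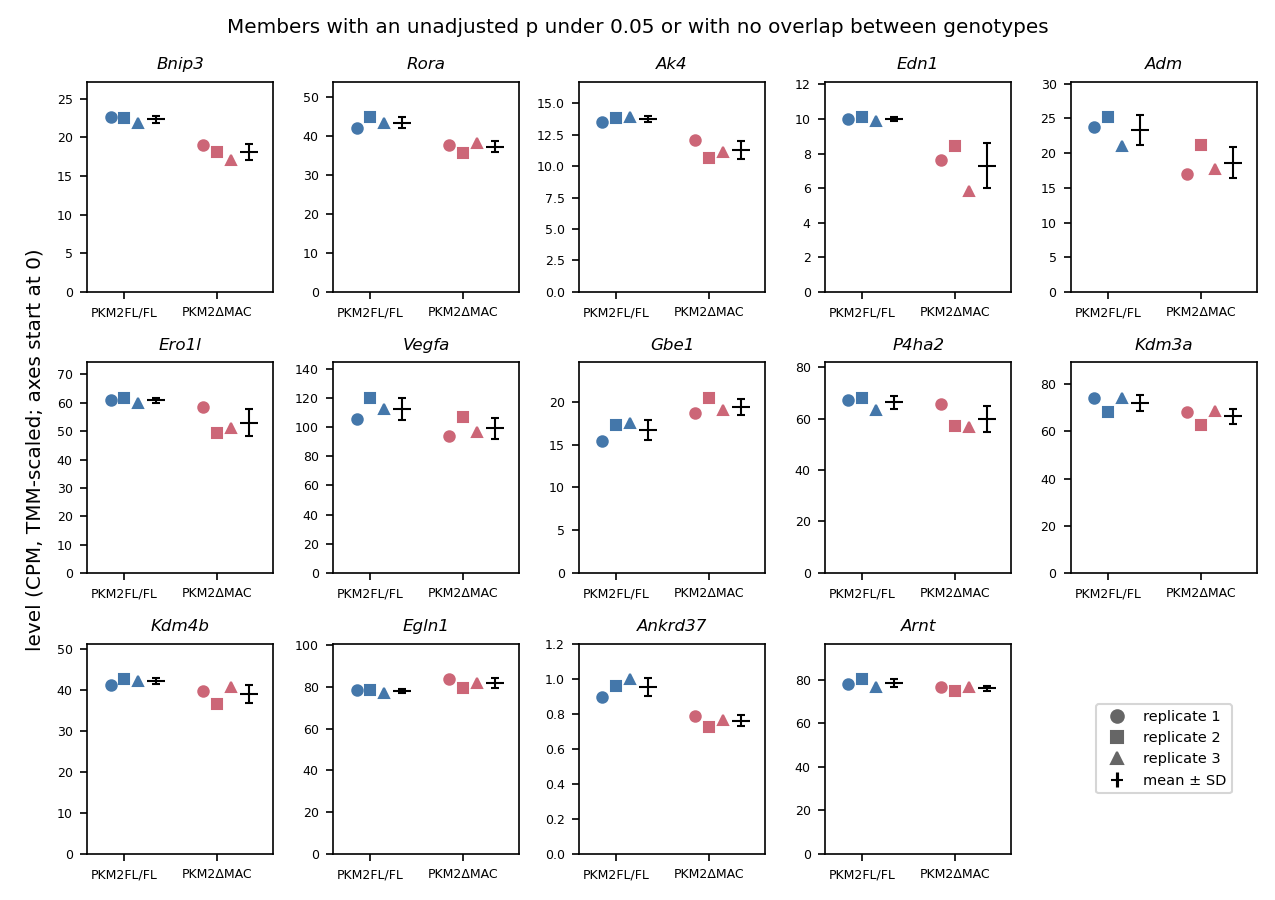
Levels (CPM scaled by TMM, axes starting at 0) in each library of the 14 members with an unadjusted p under 0.05 or with no overlap between genotypes, with shapes for the replicate and black marks for mean ± SD (n = 3). The PKM2ΔMAC libraries of Bnip3, Rora, Ak4, Edn1, Ero1l, Kdm4b, Ankrd37 and Arnt (by less than 0.1 CPM) lie below the controls, those of Gbe1 and Egln1 above, and those of Adm, Vegfa, P4ha2 and Kdm3a overlap them.

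Collagen-modifying enzymes and the ER oxidase were measured in a culture with high collagen RNA. Col1a1, a fibroblast marker, was at 1039.8 to 1538 TPM, and 6 fibroblast markers summed to 1949.6 to 2227 TPM in PKM2FL/FL and 2157 to 2622 TPM in PKM2ΔMAC. Of these 6, Pdgfra was at 17.9 to 27.9 TPM, Dcn at 3.52 to 28.0 TPM and Lum at 0.420 to 4.15 TPM, far below Col1a1. On counts, 5 of the 6 were above 0 and 1, Col3a1, was below. The part of the 6 markers in the values of this group was not tested. P4ha1, an α subunit of collagen prolyl hydroxylase, was at 155, 146 and 153 CPM in PKM2FL/FL and 157, 148 and 149 CPM in PKM2ΔMAC and overlapped, with a log2 fold change of 0.0017 (SE 0.041, 95% interval -0.092 to 0.10, adjusted p = 0.994). P4ha2, the other α subunit, was at 67.4, 68.2 and 63.4 CPM in PKM2FL/FL and 65.6, 57.2 and 56.6 CPM in PKM2ΔMAC. PKM2ΔMAC replicate 1 lay among the controls and the other two below them, with a log2 fold change of -0.15 (95% interval -0.29 to -0.0041, unadjusted p = 0.0451, adjusted p = 0.494). Plod1, a lysyl hydroxylase, was at 209, 231 and 222 CPM in PKM2FL/FL and 214, 222 and 195 CPM in PKM2ΔMAC, overlapping, with a log2 fold change of -0.073 (SE 0.059, 95% interval -0.21 to 0.061, adjusted p = 0.755), and Plod2 gave -0.11 (95% interval -0.28 to 0.057). Over the 14 alternatives Plod1 ran from -0.11 to -0.0018 and Plod2 from -0.20 to -0.043.

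Ero1l, the oxidase that drives disulfide bond formation in the ER, was at 61.0, 61.8 and 60.0 CPM in PKM2FL/FL and 58.5, 49.5 and 51.2 CPM in PKM2ΔMAC. The genotypes did not overlap, with replicate 1 of PKM2ΔMAC the closest to the controls, and Ero1l was 12.9% lower by a log2 fold change of -0.20 (95% interval -0.34 to -0.056, unadjusted p = 0.0123, adjusted p = 0.352). In this group 4 of 5 members were below 0, with a median of -0.11.

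The 6 chromatin and transcription members were all below 0 on counts, with Bhlhe40 at 0.0022 on the TPM scale, and their median was -0.12. Rora, a nuclear receptor of clock and immune genes, was at 42.0, 45.0 and 43.4 CPM in PKM2FL/FL and 37.7, 35.7 and 38.4 CPM in PKM2ΔMAC. The genotypes did not overlap, and Rora was 14.3% lower by a log2 fold change of -0.22 (95% interval -0.34 to -0.11, unadjusted p = 0.00187, adjusted p = 0.179). Kdm3a, a histone lysine demethylase, was at 74.4, 68.4 and 74.1 CPM in PKM2FL/FL and 68.1, 62.6 and 68.5 CPM in PKM2ΔMAC, with a slight overlap and a log2 fold change of -0.12 (95% interval -0.24 to -0.0013, unadjusted p = 0.0481, adjusted p = 0.503). Kdm4b, another histone lysine demethylase, was at 41.2, 42.7 and 42.2 CPM in PKM2FL/FL and 39.7, 36.5 and 40.6 CPM in PKM2ΔMAC, with no overlap and a log2 fold change of -0.11 (95% interval -0.23 to 0.0094, unadjusted p = 0.0665, adjusted p = 0.539). Without PKM2ΔMAC replicate 2, Kdm3a was at -0.079 (unadjusted p = 0.123) and Kdm4b at -0.066.

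Both basic helix-loop-helix repressors varied widely among mice of 1 genotype. Bhlhe40 was at 63.4, 46.7 and 60.4 CPM in PKM2FL/FL and 64.0, 35.3 and 68.3 CPM in PKM2ΔMAC, lowest in replicate 2 of each genotype, and gave -0.026 (95% interval -0.76 to 0.71). Bhlhe41 was at 104, 82.1 and 91.1 CPM in PKM2FL/FL and 82.3, 60.7 and 79.5 CPM in PKM2ΔMAC, again lowest in replicate 2 of each genotype, and gave -0.32 (95% interval -0.67 to 0.033), or -0.19 without PKM2ΔMAC replicate 2. Nfil3, a basic leucine zipper repressor, gave -0.087 (95% interval -0.22 to 0.046).

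Glycogen and pH genes held the 1 member that was higher at an unadjusted p under 0.05. Gbe1, the glycogen branching enzyme, was at 15.4, 17.3 and 17.5 CPM in PKM2FL/FL and 18.7, 20.5 and 19.0 CPM in PKM2ΔMAC. All PKM2ΔMAC libraries lay above all controls, and Gbe1 was 15.9% higher, with a log2 fold change of 0.21 (95% interval 0.039 to 0.39, unadjusted p = 0.0221, adjusted p = 0.412). Gys1, the glycogen synthase of muscle and other tissues, gave -0.066 (95% interval -0.22 to 0.090) and overlaps Ruvbl2 on the other strand. Their exons share 310 bases, and the counts of Ruvbl2 were 75.1% of those of Gys1. The source of some Gys1 reads is therefore uncertain. Car9, a carbonic anhydrase of the cell surface and a sensitive hypoxia marker, was at 4.16, 3.73 and 3.46 CPM in PKM2FL/FL and 2.79, 3.28 and 4.86 CPM in PKM2ΔMAC and gave -0.058 (95% interval -0.54 to 0.42). Exons of Car9 share 214 bases with an antisense gene, Gm12454, whose counts were 19.1% of those of Car9. Car12, a second carbonic anhydrase, had 6, 0 and 3 counts in PKM2FL/FL and 4, 12 and 12 in PKM2ΔMAC and was not tested.

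Of the 3 stress and growth genes, 2 were below 0 on counts and 1 above, and 0 had an unadjusted p under 0.05. Ddit4, an inhibitor of mTOR signalling, gave 0.10 (95% interval -0.19 to 0.39), and Ndrg1, a stress-responsive gene, gave -0.056 (95% interval -0.32 to 0.21). Ankrd37, an ankyrin-repeat HIF target, was at 0.899, 0.962 and 1.00 CPM in PKM2FL/FL and 0.792, 0.728 and 0.766 CPM in PKM2ΔMAC. The genotypes did not overlap, yet with few counts its log2 fold change of -0.33 (SE 0.23, 95% interval -0.86 to 0.21, adjusted p = 0.713) had a wide interval. Its exons share 57 bases with Ufsp2 on the other strand, which held 12013 counts over all libraries against 269 for Ankrd37, so the source of these reads is uncertain.

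Other genes of the pathway were compared with the members through 3 lists of genes taken for their role. Of 14 genes of the HIF machinery (ubiquitin ligase parts, coactivators, chaperones), 0 were called by edgeR (smallest adjusted p 0.332), and 3 had an unadjusted p under 0.05, where 9.83% of all tested genes did in either direction. The log2 fold change was -0.15 (95% interval -0.25 to -0.046) for Cited2, a competitor of HIF-α for coactivator, 0.12 (95% interval 0.0047 to 0.24) for Eloc, a partner of VHL, and 0.089 (95% interval 0.0021 to 0.18) for Hsp90aa1, a chaperone of HIF-α. In this list 7 genes were below 0 and 7 above, with a median of 0.0062.

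Of 16 other HIF targets outside glycolysis, 1 was called (where 0.412% of all tested genes were) and 3 had an unadjusted p under 0.05 (where 9.83% did). Cxcr4, a chemokine receptor, was at 176, 186 and 191 CPM in PKM2FL/FL and 151, 153 and 137 CPM in PKM2ΔMAC, with no overlap between genotypes. Cxcr4 fell by 20.2% in PKM2ΔMAC, a log2 fold change of -0.33 (SE 0.052, 95% interval -0.44 to -0.21, adjusted p = 0.0465). This call was lost in 10 of 14 alternatives, among them 5 of 6 that left out a library, all but that without PKM2ΔMAC replicate 2 (adjusted p from 0.0609 to 0.289 in these), with a log2 fold change of -0.25 and an adjusted p of 0.282 on the TPM scale. In the same list Pdgfb, a growth factor, gave 0.62 (95% interval 0.083 to 1.15, unadjusted p = 0.0307, adjusted p = 0.449), and Rbks, a ribokinase, gave -0.33 (95% interval -0.62 to -0.033, unadjusted p = 0.0334, adjusted p = 0.454). The list had 7 genes below 0 and 9 above, with a median of 0.026.

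Of 19 glycolytic HIF targets, 0 were called by edgeR and 2 (10.5%) had an unadjusted p under 0.05, near the 9.83% of all tested genes. These were Pfkl, a phosphofructokinase, at -0.14 (95% interval -0.24 to -0.031), and Slc16a3, a lactate exporter, at -0.21 (95% interval -0.38 to -0.050). This list had 10 genes below 0 and 9 above, with a median of -0.0070. Whether the members differ from these lists was not tested.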

How the data were processed

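The authors deposited raw read counts per gene symbol and TPM values for 6 libraries (total RNA, 1 per mouse). The submitters' processing notes name mm10, FastQC 0.12.1, Trim Galore 0.6.10, HISAT2 2.2.1, SAMtools 1.19.2 and Subread 2.0.6. The annotation and the strand setting are not given in the sources used here. Columns were matched to libraries by genotype and mouse number (0 unmatched).

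Counts were compared with edgeR 4.0.16 (R 4.3.3), using filterByExpr, TMM factors and the robust quasi-likelihood test with genotype as its only term. Common dispersion was 0.0128. Benjamini-Hochberg adjustment covered all 16516 genes tested, with calls at 0.05. Intervals are 95% intervals from the t distribution on the fit's degrees of freedom. Two-sided exact permutation tests used log2(CPM + 0.1) for genes and TPM shares for paralogs, and the smallest p with 3 libraries per genotype is 0.10. The scripts were tested on simulated data. With 1 library per mouse, p-values measure the spread between mice and their cultures together.

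Alternatives were RLE normalization, DESeq2 1.42.0, no filter, at least 10 counts in every library, a replicate block, each library left out, and limma-trend (limma 3.58.1) on log2(TPM + 1) or log2(TPM + 0.1), keeping genes whose mean TPM reached 1 or all genes. Those for Cxcr4 were added after seeing the data.

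Named in full were the 10 regulators, every member with an unadjusted p under 0.05 or with no overlap between genotypes, and the 5 with the highest mean TPM. Genes of the other lists were named by call or unadjusted p. Bhlhe40, Bhlhe41, Car9, Hif3a and Car12 are also given per library, the first 3 chosen after their values were seen. The members and lists were chosen with earlier results of these data known. Gene positions and overlaps came from GENCODE M21 (GRCm38) and promoters from RefSeq (GRCm38.p6).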

Additional observations from a re-analysis of the deposited data

How the results depend on the processing

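Of the 37 tested members, 23 kept their sign in all 14 alternatives and 14 reversed in at least 1. Bnip3, Ak4 and Edn1 had an unadjusted p under 0.05 in all 14. DESeq2 called 302 genes and 1 member in place of 68 and 0, and no filter on low counts gave 120 genes. On log2(TPM + 1), log2(TPM + 0.1) and log2(TPM + 1) without a filter, 41, 32 and 36 genes were called, 5 members had an unadjusted p under 0.05 in each (beside 13.3%, 13.2% and 10.3% of all genes), 3 of them lower (beside 1.82%, 1.74% and 1.95% of all genes), and the member median was -0.016, -0.019 and -0.013. The median of all genes stood at 0.063, 0.067 and 0.046 there. Signs reversed on log2(TPM + 1) and log2(TPM + 0.1) for Arnt (0.026 and 0.027), Egln2 (0.057 and 0.058), Angptl4 (0.042 and 0.044), Mif (0.027 and 0.027), Fam162a (0.00047 and 0.00046), Ndrg1 (0.0075 and 0.0075), Bhlhe40 (0.0022 and 0.0013), Gys1 (0.0048 and 0.0048), and on log2(TPM + 1) without a filter they reversed for the same genes with values equal to the first. TPM values sum to nearly the same total in every library. Lyz2 made up 4.48% to 4.96% of that total in PKM2FL/FL and at most 0.00876% in PKM2ΔMAC. The part of this difference in the reversals was not tested. With each library left out, between 22 and 299 genes (0.129% to 1.77% of those tested) and 0 to 2 members were called, both highest without PKM2ΔMAC replicate 2, 12 to 17 of the 37 or 38 members tested had no overlap between genotypes (beside 24.9% to 31.1% of all genes in those fits), and the member median ran from -0.14 to -0.066. Leaving out some library moved 25 of 37 members by over 1.5 times or across 0, most often PKM2ΔMAC replicate 2 (20 members). Single genes whose sign changed in some of these fits ran, lowest to highest, Bhlhe40 -0.20 to 0.22, Car9 -0.32 to 0.10, Hif1an -0.018 to 0.028, Higd1a -0.053 to 0.071, P4ha1 -0.024 to 0.018, Angptl4 -0.13 to 0.10, Egln2 -0.040 to 0.014, Stc2 -0.48 to 0.039, Ndrg1 -0.15 to 0.058, Ddit4 -0.027 to 0.22. Deviations of same-numbered libraries from the mean of their genotype correlated at 0.0797, 0.141 and 0.0188, and 5 of 6 libraries correlated best with their own number. With 3 libraries per genotype, each centred on their own mean, these values cannot settle whether mouse numbers pair the libraries. With the replicate block, 82 genes and 0 members were called, and 12 members had an unadjusted p under 0.05 (beside 11.02% of all genes), 11 of them lower (beside 5.41%), with a median of -0.089 and a smallest member adjusted p of 0.0556 (Bhlhe41). Depth limits Hif3a, Car12, Ankrd37 and Stc2, for which counting error adds to the spread between mice.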
